A study of Rattus norvegicus with 6 samples.

Results

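A set of 370 accessible regions was examined whose read density rose at least 2-fold with FSK in Med14 S983A cells and by less in WT cells. They were selected on 4 measured values per peak, the read densities in CON and FSK of each genotype. A peak entered the set when its log2 change, FSK minus CON on the log2(FPKM + 0.5) scale, was at least 1 in Med14 S983A and below 0.75 in WT. FPKM is a read density scaled to the length of the peak and to the depth of the library, here close to its reads in the merged peaks, as deposited by the authors. Of 220490 merged peaks, 3 lay on the mitochondrial chromosome and were left out, 86576 of the rest were called in all 6 libraries, and 86465 of these had a mean of at least 1 FPKM. These 86465 peaks are called the background set here. The 370 members made up 0.428% of the background set. A further 1 peak met the limits on the changes but had a mean under 1 FPKM, and it was not included.

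In ATAC-seq the Tn5 transposase cuts DNA that it can reach, so a high read density marks open chromatin. The cells were INS-1, a rat insulinoma line used as a model of the pancreatic beta cell. WT cells were compared with a CRISPR knock-in in which alanine replaces a serine of Med14, a subunit of the Mediator complex. Cells of each genotype were placed in medium without serum and then left untreated (CON) or given 10 nM Ex-4 or 10 µM FSK for 1 h, with 1 library per condition. The study describes mutant lines grown from sorted clones. The sources used here do not give the line behind the 3 mutant libraries or any pooling of cultures. With 1 library per condition and genotype there is no replicate error, every difference describes these 6 libraries, and a difference between genotypes cannot be told apart from a difference between clones or libraries.

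As background, FSK activates adenylate cyclase directly, while Ex-4 is an agonist of the GLP-1 receptor, which reaches adenylate cyclase through a G protein. The cAMP made in either case frees the catalytic subunits of protein kinase A, which phosphorylate CREB and other nuclear proteins. Mediator links transcription factors bound at enhancers to RNA polymerase II, and enhancers that bind factors after a stimulus often become more accessible. The serine exchanged in Med14 S983A is described by the study as a protein kinase A target. Sequence, motifs and nearby genes of the regions were not analysed here, so regions are given by their rn6 coordinates.

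Reads inside peaks, recovered from the steps between low FPKM values, ranged from 134318334 in Med14 S983A CON to 251161623 in WT FSK. The members were less deeply covered in the mutant. In CON, Ex-4 and FSK their median read number was 510.5, 552 and 1271.5 in WT, against 138.5, 260.5 and 484 in Med14 S983A. In Med14 S983A CON, 136 members had fewer than 100 reads, and the median counting error there was 8.50%.

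A 2-fold rise with FSK in Med14 S983A was seen in 3942 peaks, which is 4.56% of the background set. Of these, 3140 (79.7%) also rose at least 2-fold in WT, 432 had a WT change between 0.75 and 1, and the 370 members (9.39%) lay below 0.75 in WT. The reverse class, raised at least 2-fold in WT and below 0.75 in Med14 S983A, held 1132 peaks. The members lie on the edge of a joint distribution, as the plot of the FSK change by genotype shows.

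**Figure D1:**
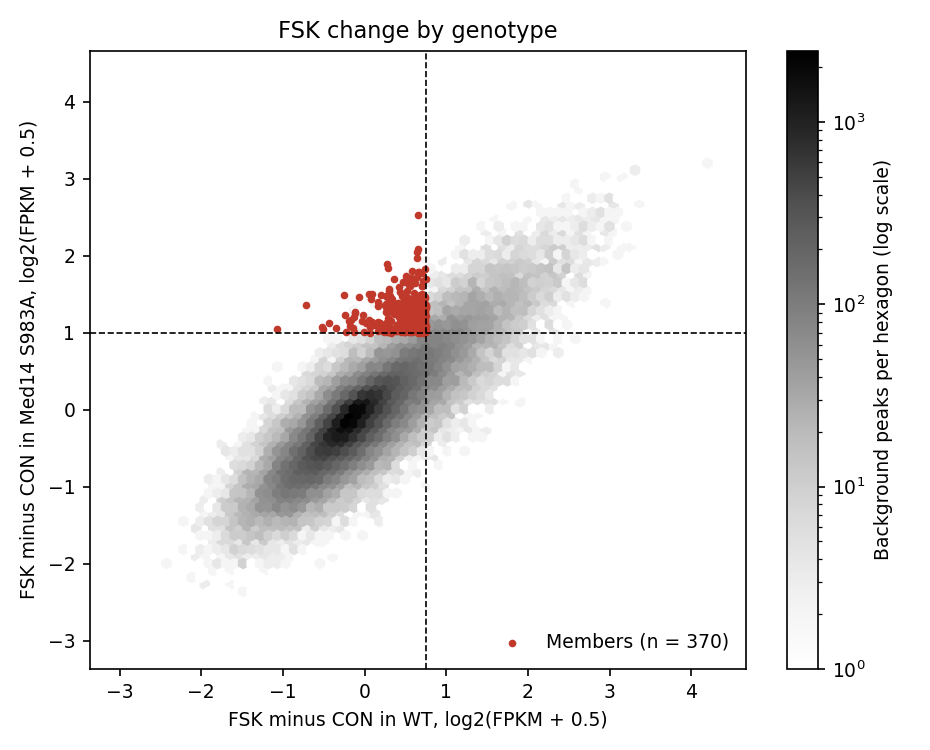
The change with FSK in WT (horizontal axis) is plotted against that in Med14 S983A (vertical axis), both as FSK minus CON in log2(FPKM + 0.5), with the 86465 background peaks as grey hexagons (count on a log scale) and the 370 members as red points. Dashed lines mark the limits of 0.75 in WT and 1 in Med14 S983A, and most members crowd into the corner where the lines meet.

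Because the rule used these values, they are given as a description only. The log2 change of the members with FSK had a median of 1.17 in Med14 S983A (1.00 to 2.54) and of 0.59 in WT (-1.07 to 0.75). In plain FPKM the median rise was 2.63-fold in Med14 S983A (2.04 to 6.93) and 1.57-fold in WT (0.362 to 2.15). Many members sat close to a limit. In Med14 S983A 113 of 370 changed by less than 1.1, in WT 128 changed by at least 0.65, and 246 changed by at least 0.5 in WT. A rise of at least 3-fold in Med14 S983A was reached by 28 members (7.57%, against 1.47% of the background set). Among the peaks raised at least 2-fold in both genotypes this share was 38.8%.

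The peaks next to each limit differed little in the change that the limit concerns, but their densities varied. On the Med14 S983A limit, chr10:91104478-91105098 (8.30 FPKM in CON, 17.1 in FSK) and chr9:94267113-94267390 (6.99 and 14.5) lay just inside, and chr20:7447276-7447620 (1.69 and 3.87) and chr2:177987914-177988755 (2.71 and 5.91) just outside. On the WT limit, chr8:54708989-54709536 (4.09 FPKM in CON, 7.22 in FSK) and chr5:12551099-12551610 (6.29 and 10.9) were members, while chr7:121427654-121428313 (22.1 and 37.5) and chr9:22404682-22405762 (1.64 and 3.11) were not.

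The genotype gap of a peak is its log2 change with FSK in Med14 S983A minus that in WT. Over the members the gap had a median of 0.64 and ran from 0.27 to 2.12, with 72 members at 1 or more and 104 under 0.5. Counting error alone left an interval of 95% above 0 for the gap of 362 members when a step was taken as 1 read, and of 334 when it was taken as 1 end of a read pair. These intervals cover counting error only and say nothing of the spread between libraries.

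The set differed from its working description in level. In FSK the density in Med14 S983A was lower than in WT at 244 of the 370 members (65.9%, against 47.4% of the background set). At these a lower density in CON was fixed by the rule, which puts every member's genotype difference in CON below that in FSK. At the other 126 (34.1%, against 52.6%) the mutant was higher than WT in FSK. A lower FSK density in the mutant was not particular to the members, since its share was 69.6% both among the peaks raised in both genotypes and in the reverse class. Median densities in CON, Ex-4 and FSK were 6.01, 6.21 and 8.61 FPKM in WT and 1.94, 3.12 and 5.40 FPKM in Med14 S983A. The corresponding medians of the background set were 8.79, 8.72 and 8.43 FPKM in WT and 8.05, 8.06 and 7.43 FPKM in Med14 S983A. The gain in plain FPKM from CON to FSK had a median of 2.98 in WT and 3.40 in Med14 S983A, and it was larger in Med14 S983A at 239 members (64.6%, against 50.5% of the background set).

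**Figure D2:**
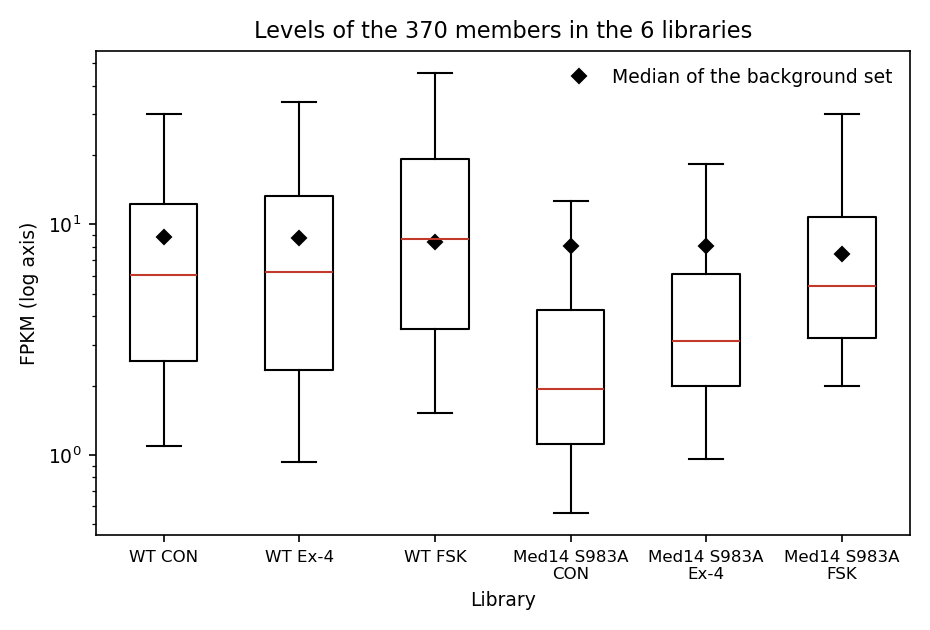
Density of the 370 members in FPKM (log axis) in each of the 6 libraries, with boxes from the 25th to the 75th percentile, whiskers from the 5th to the 95th percentile and medians in red, beside the medians of the background set as diamonds. The median of the members lay furthest below that of the background set in Med14 S983A CON, at 1.94 against 8.05 FPKM, and closest to it in WT FSK, at 8.61 against 8.43 FPKM.

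Most members were lower in untreated mutant cells. In CON, Med14 S983A was below WT at 328 members (88.6%, against 46.0% of the background set) and at least 2-fold below it at 197 (53.2%, against 10.5% of the background set). It was at least 2-fold above WT at 11 members (2.97%, against 4.9%). Med14 S983A CON was the lowest of the 6 libraries at 300 members (81.1%, against 13.3%). A low value in this library raises the change the rule asks for, so these counts describe the choice and support nothing.

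In FSK, Med14 S983A was at least 2-fold below WT at 107 members (28.9%, against 11.4% of the background set) and at least 2-fold above it at 26 (7.03%, against 4.07%). The highest of the 6 libraries was WT FSK at 237 members (64.1%, against 15.7%) and Med14 S983A FSK at 122 (33%, against 15.8%). Among the peaks raised in both genotypes these shares were 69.6% and 30.3%, and in the reverse class 68% and 26%. At 84 members (22.7%, against 6.56%) Med14 S983A was below WT in CON and above it in FSK. The FSK libraries also chose the members, so these counts are descriptions too.

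The Ex-4 libraries did not set the FSK changes, and the comparison of genotypes within Ex-4 shares no library with the rule beyond the call in all 6 libraries and the mean. In Ex-4, Med14 S983A was below WT at 262 members (70.8%, against 45.4%). It was at least 2-fold below at 129 members (34.9%, against 9.6% of the background set) and at least 2-fold above at 22 (5.95%, against 4.98%). The log2 difference, Med14 S983A minus WT, had a median of -0.62 in Ex-4 over the members and of 0.052 over the background set. In CON and FSK it was -1.10 and -0.37 over the members. With each library centred on its median, 507 peaks met the rule and their difference in Ex-4 had a median of -0.32. A stricter limit on the gap brought it closer to 0, at -0.12 over the 72 members with a gap of at least 1. A stricter WT limit did so too, at -0.10 over the 42 with a WT change below 0.25. It was -0.038 over the 166 members with a mean under 5 FPKM. Other stricter limits moved it further from 0, to -0.81 over the 28 members raised at least 3-fold in Med14 S983A. With a mean of at least 3 FPKM it was -0.91. A lower density in the mutant was thus read in the Ex-4 libraries over the members as a whole. The lowering was smaller than in CON. It was smaller again under the stricter gap and WT limits and at a mean under 5 FPKM, and larger under the 3-fold and 3 FPKM limits. It went with the difference in CON, on which the rule bears. Among peaks at least 2-fold lower in Med14 S983A CON, the median difference in Ex-4 was -1.26 over members and -1.39 over the background set. Within 2-fold in CON it was 0.11 and 0.081, and at least 2-fold higher in CON it was 2.14 and 1.27. In no class was the members' median the lower one.

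The other classes of FSK-raised peaks had no such lower level in Ex-4. The median difference, Med14 S983A minus WT, was 0.084 over the 3140 peaks raised in both genotypes and 0.20 over the 1132 peaks of the reverse class. In Ex-4 the mutant was lower by 2-fold or more at 378 of the former and at 151 of the latter (13.3%). Across the 370 members the genotype differences in CON and in Ex-4 went together (Pearson's r 0.94, Spearman's rho 0.93), much as across the background set (r 0.95, rho 0.90). The points share the same 4 libraries, and members are not replicates.

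**Figure D3:**
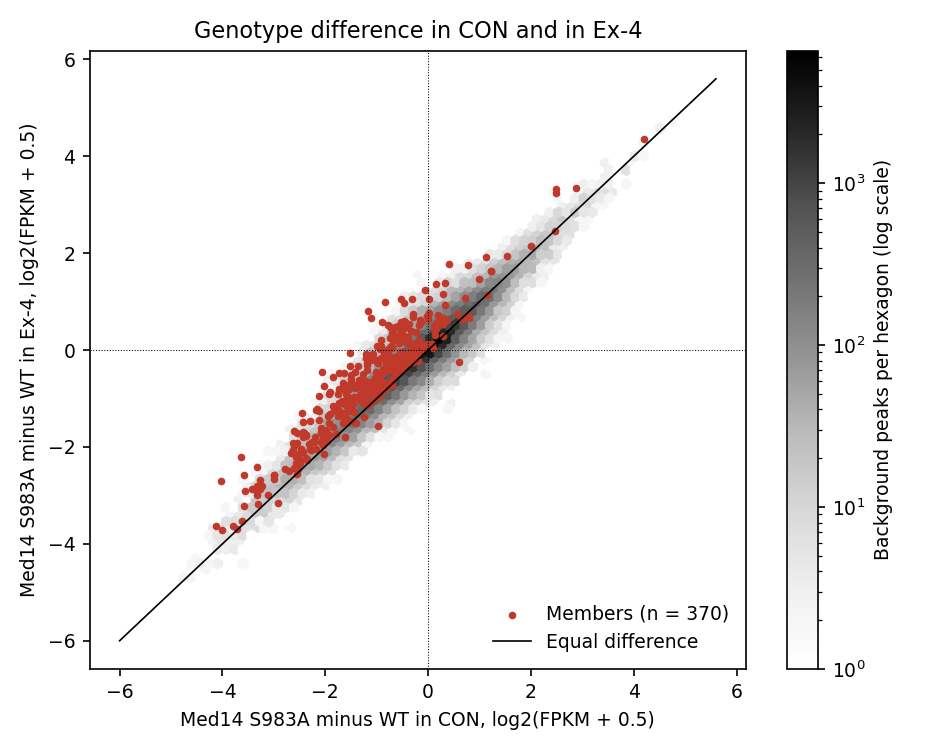
The difference between genotypes in CON (horizontal axis) is plotted against that in Ex-4 (vertical axis), each as Med14 S983A minus WT in log2(FPKM + 0.5), for 86465 background peaks (grey hexagons, count on a log scale) and the 370 members (red points). The members follow the line of equal difference but lie above it at 354 peaks, with medians of -1.10 in CON and -0.62 in Ex-4. The CON values also chose the members, so a place above the line is partly set by the choice.

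The members were then divided by their difference in CON. The 197 members at least 2-fold lower in Med14 S983A CON had medians of 9.90, 10.2 and 15.0 FPKM in WT CON, Ex-4 and FSK, and of 1.85, 2.93 and 4.997 FPKM in Med14 S983A. Of these, 128 were still at least 2-fold lower in the mutant in Ex-4 and 107 in FSK. These sites were open in untreated WT cells and did not reach the untreated WT density in the median even after FSK in the mutant. They made up 2.16% of all background peaks that were 2-fold lower in Med14 S983A CON.

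The 162 members within 2-fold in CON started low in both genotypes. Their medians were 2.64, 2.48 and 4.28 FPKM in WT and 1.99, 3.22 and 5.36 FPKM in Med14 S983A. Med14 S983A was below WT at 67 of them in Ex-4 and at 52 in FSK, and the median difference was 0.11 in Ex-4 and 0.23 in FSK. They were 0.222% of the background peaks within 2-fold in CON.

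The 11 members that exceeded WT by 2-fold or more in Med14 S983A CON did so in each treatment. Their medians were 1.38, 1.40 and 1.89 FPKM in WT and 7.83, 10.6 and 17.8 FPKM in Med14 S983A. All 11 exceeded WT by 2-fold or more in Ex-4. The same count in FSK was fixed by the rule, which puts every member's genotype difference in FSK above that in CON. They were 0.260% of the background peaks that exceeded WT in this way.

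The change with Ex-4 was read next. It uses the same CON libraries as the rule, so a low reading in Med14 S983A CON enters both. In Med14 S983A, Ex-4 was above CON at 357 members (96.5%, against 44.7% of the background set) and at least 2-fold above it at 35 (9.46%, against 0.634%). In WT, Ex-4 was above CON at 212 members (57.3%, against 44.9%) and at least 2-fold above it at 0 members (0.448% of the background set). At 1.5-fold the counts were 144 members in Med14 S983A (38.9%, against 3.6%) and 2 in WT (0.541%, against 2.34%).

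The median log2 change with Ex-4 was 0.52 in Med14 S983A and 0.040 in WT, the latter turning to -0.0071 over the members found after quantile normalization. The background set had -0.021 and -0.017. Over the peaks raised by FSK in both genotypes the change was 0.64 in Med14 S983A and 0.41 in WT, and over the reverse class it was 0.25 and 0.42. The members had the lowest WT change with Ex-4 of these 3 FSK-raised classes. They are also the only class whose rule bounds the WT change with FSK from above. The WT change with Ex-4 shares the WT CON library with that bound, so this order is partly set by the choice. In Med14 S983A the change with Ex-4 reached a median of 42.8% of the change with FSK, both at the members and at the peaks raised in both genotypes.

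In Med14 S983A the Ex-4 value lay between CON and FSK at 351 members (94.9%, against 21.4% of the background set and 97.7% of the peaks raised in both genotypes). In WT it did so at 205 members (55.4%, against 21% and 91.9%). At 4 members (1.08%, against 0.0625% of the background set) WT Ex-4 was at least 2-fold below WT CON. This held at 0 of the peaks raised in both genotypes and at 0 of the reverse class. Both classes require WT FSK at least 2-fold above WT CON, which disfavours a high WT CON value, so this contrast is partly set by the choice. The 4 members were named after their values were seen. The peak chr12:37530160-37530665 had 2.60, 0.972 and 4.34 FPKM in WT CON, Ex-4 and FSK. The peak chr3:164357123-164357568 had 4.87, 2.00 and 6.14 FPKM, and chrX:72071556-72072271 had 3.33, 1.41 and 3.16 FPKM. With chr8:64503382-64504526, described further on, they form the 4, and in Med14 S983A none of them fell with Ex-4.

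Putting the Ex-4 library in the place of CON gives a reading of the gap that does not use CON. Ex-4 acts on the same pathway and raised part of these peaks, so it is not a neutral reference. The FSK values in it are those that chose the members, high in Med14 S983A and bounded in WT, so a gap above 0 is partly fixed by the choice and the counts that follow are descriptions. The gap with Ex-4 as reference, FSK minus Ex-4 in Med14 S983A less the same in WT, had a median of 0.19 over the members, against 0.64 with CON. It was above 0 at 267 members (72.2%, against 49.1%). For each peak the gap with CON is the sum of this gap and of the genotype difference in the change with Ex-4. The last had a median of 0.44 and was above 0 at 354 members (95.7%, against 49.1%). In these values the larger share of the gap thus lay between CON and Ex-4. That share uses both CON libraries that chose the members, so it too is partly fixed by the choice.

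In Med14 S983A, FSK was at least 2-fold above Ex-4 at 63 members (17.0%, against 1.59% of the background set), with every member chosen on a high FSK value in this genotype. The whole rule, with Ex-4 in place of CON, was met by 179 peaks (0.207% of the background set), and 47 of them were members. The overlap was 12.7% of the 370 and 26.3% of the 179. For the other classes treated in the same way, 290 of 1132 peaks (25.6%) again met the reverse rule and 1013 of 3140 (32.3%) again rose at least 2-fold in both genotypes. The limits used are fixed sizes, and FSK changes are smaller from Ex-4 than from CON, so a part of each class falls below them.

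**Figure D4:**
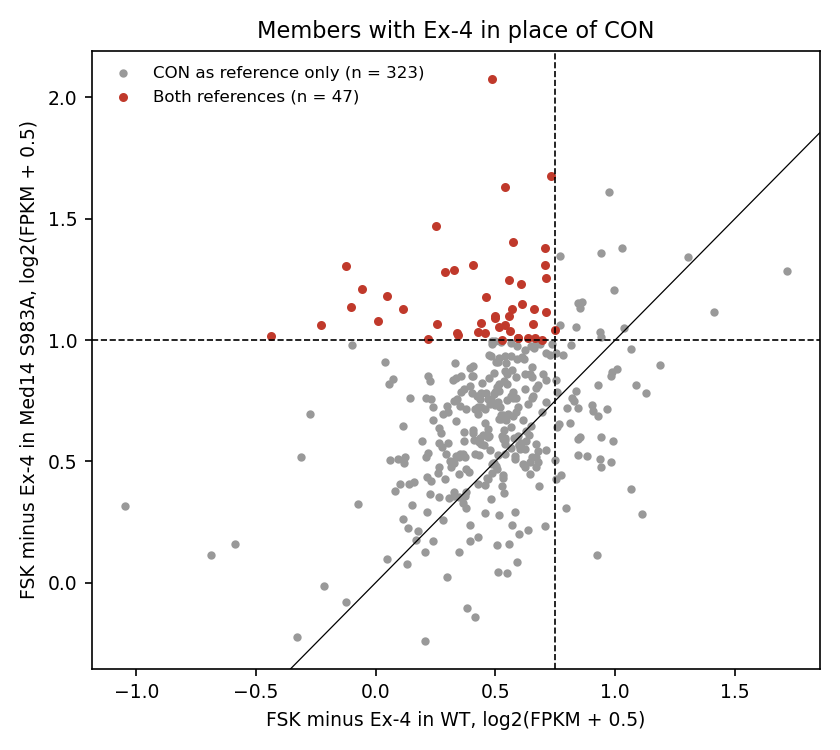
For the 370 members, FSK minus Ex-4 in WT (horizontal axis) is plotted against FSK minus Ex-4 in Med14 S983A (vertical axis), in log2(FPKM + 0.5), with the 47 that met the rule with either reference in red and the other 323 in grey. Dashed lines mark the limits of 0.75 and 1 and the solid line marks equal changes, above which 267 members lie.

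The 47 members that met the rule with either reference had medians of 4.97, 5.07 and 8.09 FPKM in WT CON, Ex-4 and FSK, and of 1.93, 2.48 and 5.50 FPKM in Med14 S983A. Their gap had a median of 0.81 with CON and 0.63 with Ex-4 as reference. By their difference in CON, 27 were at least 2-fold lower in Med14 S983A, 17 within 2-fold and 3 at least 2-fold higher. The 132 peaks that met the rule with Ex-4 as reference and not with CON had medians of 1.85, 1.53 and 4.15 FPKM in Med14 S983A CON, Ex-4 and FSK. Ex-4 was above CON in the mutant at 41 of these 132, with a median log2 change of -0.28. Each choice thus held peaks that were low in the library used as its reference, and the part of this in the gap of the members was not tested apart from these values.

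Among the 8 members with the largest gap, the mutant was not always the lower genotype. The peak chr17:16110580-16111609 showed the largest FSK change of any member in Med14 S983A, a log2 change of 2.54. It read 20.6, 17.7 and 32.5 FPKM in WT CON, Ex-4 and FSK, and 4.54, 12.8 and 28.7 FPKM in Med14 S983A. The mutant was far below WT in CON and close to it in FSK, and Ex-4 raised the peak in the mutant only, by 1.40 on the log2 scale against -0.21 in WT.

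The peak chr15:495291-495944 had 14.6, 13.3 and 8.67 FPKM in WT and 0.422, 1.61 and 1.86 FPKM in Med14 S983A. Here the mutant stayed below WT in every condition, and its rise with FSK, 4.41-fold in plain FPKM and a log2 change of 1.36, started from 0.422 FPKM. At chr1:199054098-199054477, the member with the largest gap (2.12), values were 2.26, 2.23 and 0.819 FPKM in WT and 1.18, 2.30 and 2.98 FPKM in Med14 S983A. With FSK this peak read lower in WT and higher in the mutant, and the counting standard error of its gap was 0.22.

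Among these 8, the peaks chr8:13209286-13210432 and chr5:168208085-168208850 were far higher in the mutant. The former read 0.985, 0.961 and 0.747 FPKM in WT and 10.4, 14.3 and 30.4 FPKM in Med14 S983A. The latter read 1.38, 1.28 and 0.812 FPKM in WT and 7.01, 7.33 and 15.4 FPKM in Med14 S983A. In WT both stayed at or below 1.38 FPKM, and both met the rule with either reference.

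The remaining 3 of the 8 had low densities in both genotypes. At chr8:64503382-64504526 the values were 2.02, 0.732 and 2.54 FPKM in WT and 1.25, 2.06 and 6.002 FPKM in Med14 S983A, and its gap fell from 1.62 with CON to 0.039 with Ex-4 as reference. At chr2:189084447-189085150 they were 2.92, 2.51 and 1.89 FPKM in WT and 0.699, 2.40 and 1.98 FPKM in Med14 S983A. At chr19:11550980-11551343 they were 2.15, 2.64 and 1.45 FPKM in WT and 1.42, 3.35 and 3.67 FPKM in Med14 S983A. In the last of these peaks Ex-4 raised the mutant almost to the FSK value, and in the one before it raised the mutant above the FSK value.

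**Figure D5:**
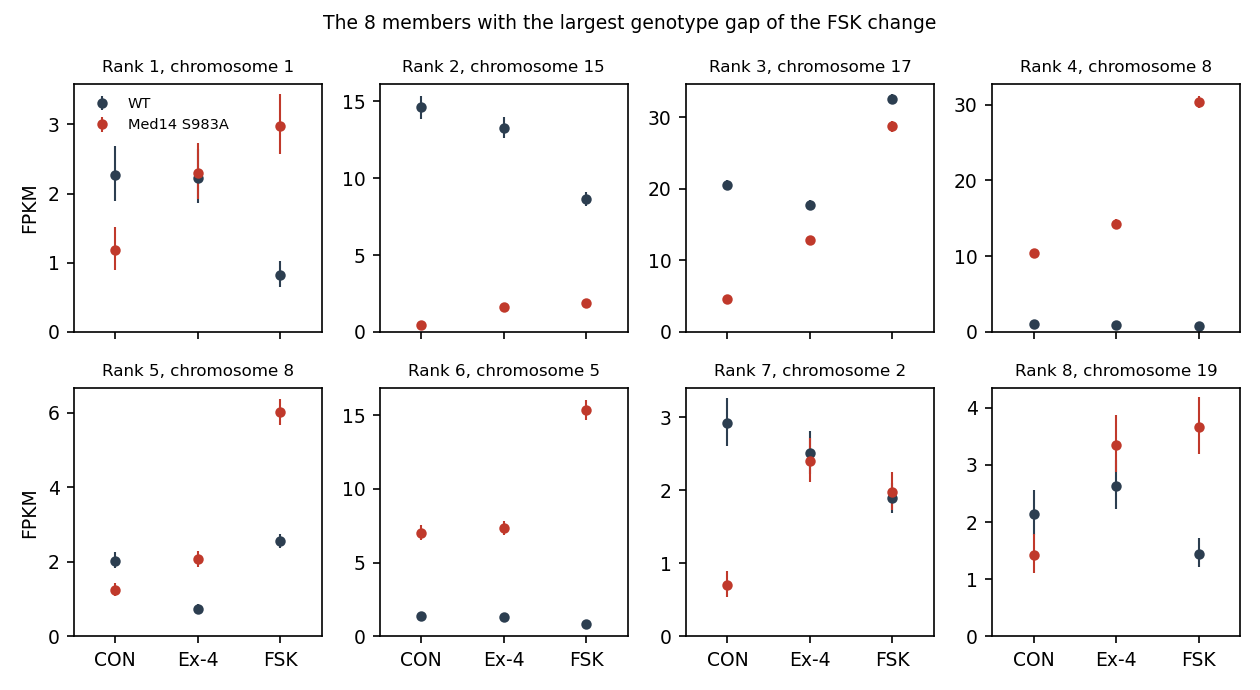
FPKM in CON, Ex-4 and FSK for the 8 members with the largest genotype gap, ranked from 1 to 8, with WT in blue and Med14 S983A in red, each panel on its own axis from 0 and bars giving exact Poisson intervals of 95% from recovered reads (counting error only). Med14 S983A was the higher genotype in CON in the panels of rank 4 and 6 and the lower one in the other 6 panels.

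The 4 members with the highest density in Med14 S983A FSK were of 2 kinds. At chr7:12731726-12732741 WT read 1.08, 1.40 and 1.27 FPKM and Med14 S983A 28.7, 38.6 and 76.5 FPKM. At chr1:232554136-232555043 WT read 3.72, 3.92 and 6.24 FPKM and Med14 S983A 23.1, 44.1 and 65.8 FPKM. Together with chr8:13209286-13210432 these were the members with the highest Med14 S983A minus WT difference in Ex-4, at 4.36 for the peak on chromosome 7, 3.34 for that on chromosome 8 and 3.33 for that on chromosome 1.

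The other 2 were strong peaks in both genotypes. At chr7:12407338-12408957 WT read 44.2, 44.2 and 69.5 FPKM and Med14 S983A 35.6, 38.5 and 76.1 FPKM. At chr8:22755493-22756135 WT read 35.0, 39.5 and 58.0 FPKM and Med14 S983A 24.9, 36.2 and 61.4 FPKM. Here the mutant was somewhat lower in CON and slightly higher in FSK.

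The lowest Med14 S983A minus WT differences in Ex-4 were -3.70, -3.69 and -3.64. The peak chr7:121243205-121243913 read 21.2, 20.8 and 26.4 FPKM in WT and 0.841, 1.13 and 2.83 FPKM in Med14 S983A. The peak chr7:114367040-114367511 read 31.3, 39.2 and 46.8 FPKM in WT and 1.93, 2.57 and 8.01 FPKM in Med14 S983A. At both, the mutant was far below WT in each condition, though the latter reached a density in Med14 S983A FSK above the background median there. The peak chr8:76756231-76756970 was also far below WT, at 14.5, 18.2 and 24.4 FPKM in WT and 0.584, 1.00 and 2.29 FPKM in Med14 S983A.

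The change with Ex-4 in Med14 S983A ran from -0.62 to 1.45. The largest was at chr1:143988342-143988939, with 0.873, 3.25 and 2.67 FPKM in Med14 S983A CON, Ex-4 and FSK and 0.586, 0.928 and 1.15 FPKM in WT. At chr14:110339986-110340459 Med14 S983A read 0.756, 2.90 and 2.58 FPKM and WT 4.97, 6.11 and 8.32 FPKM. At both peaks the Ex-4 value in the mutant exceeded its FSK value, and the next largest change was that of chr17:16110580-16111609.

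The smallest changes with Ex-4 were below 0. At chr5:57986761-57987695 Med14 S983A read 1.07, 0.517 and 2.75 FPKM and WT 2.57, 2.53 and 4.54 FPKM. At chr16:1263624-1264365 Med14 S983A read 1.08, 0.807 and 2.69 FPKM and WT 11.5, 11.1 and 14.1 FPKM. At chr1:266794607-266795236 Med14 S983A read 0.971, 0.746 and 2.58 FPKM and WT 0.472, 0.971 and 0.848 FPKM. These 3 members rose with FSK without a rise with Ex-4, and all 3 met the rule with either reference. They were picked for a low Ex-4 value in the mutant, so with Ex-4 as reference the Med14 S983A limit was met by arithmetic.

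A further pair of members with a large gap under Ex-4 as reference was picked after the values were seen. At chr2:185437401-185438476 the values were 3.66, 4.15 and 6.004 FPKM in WT and 0.859, 0.835 and 5.13 FPKM in Med14 S983A. At chr3:11449945-11450481 they were 19.7, 21.8 and 20.9 FPKM in WT and 6.36, 7.52 and 18.0 FPKM in Med14 S983A. At both, CON and Ex-4 in the mutant were close to one another and well below WT, and FSK brought the mutant near to the WT value.

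In WT 21 members (5.68%, against 64.8% of the background set) read lower in FSK than in CON, with a median log2 change of -0.17, and 14 of them lay between -0.25 and 0. Of these 21, Ex-4 was below CON in WT at 17 and above CON in Med14 S983A at 21. In CON, Med14 S983A was below WT at 16 of the 21 and in FSK at 6. With Ex-4 as reference, 12 of them were again lower with FSK in WT, and 4 rose at least 2-fold from Ex-4 to FSK in Med14 S983A.

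Most members had no other member close by. The distance from a member to the nearest other member had a median of 1085182 bp, and 344 of the 370 had no other member within 50 kb. The other 26 formed 13 pairs, and 0 runs of 3 or more members were found. These counts were not set beside those of an equal number of background peaks, so neither scatter nor clustering is read from them. The median length of the members was 557 bp, against 584 bp in the background set, and the median distance to the nearest background peak was 5280 bp, against 5967.5 bp.

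The background peaks around the members did not share their low density in untreated mutant cells, a comparison in which the members, but not the neighbours, were chosen on CON. Of 324 members with at least 3 other background peaks within 50 kb, 292 had a lower genotype difference in CON than the median of those neighbours. Among the 162 members that were at least 2-fold lower in Med14 S983A CON and had such neighbours, the neighbours' difference had a median of -0.029, and at 5 members the neighbours were themselves at least 2-fold lower. The 2542 background peaks near members changed with FSK by a median of 0.043 in Med14 S983A and -0.039 in WT, against -0.12 and -0.13 over the background set. Near the peaks raised in both genotypes these medians were -0.039 and -0.065, and near the reverse class -0.089 and -0.058. Values above those of the background set were thus not particular to the surroundings of the members.

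The closest pairs lay 214 bp apart on chromosome X and 302 bp apart on chromosome 5. On chromosome X, chrX:72071043-72071342 read 2.83, 1.94 and 4.50 FPKM in WT and 1.72, 2.93 and 6.61 FPKM in Med14 S983A, and its partner chrX:72071556-72072271 read 1.21, 2.82 and 4.23 FPKM in Med14 S983A. Both peaks of this pair fell with Ex-4 in WT and rose with it in the mutant. On chromosome 5, chr5:57041112-57041561 read 3.88, 3.83 and 6.56 FPKM in WT and 3.35, 3.22 and 8.73 FPKM in Med14 S983A. Its partner chr5:57041863-57042163 read 2.05, 1.51 and 3.21 FPKM in WT and 1.02, 2.29 and 3.50 FPKM in Med14 S983A, so the partners differed in their change with Ex-4 in the mutant.

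Chromosome 10 held 43 members among 5699 background peaks, a share of 0.755% (exact binomial interval 0.547 to 1.01), against 0.428% over all chromosomes. It also held 5 of the 13 pairs. The lowest share was that of chromosome X, with 6 members among 2491 peaks (0.241%, 0.0884 to 0.524). Chromosome 10 as a whole had a median FSK change of 0.025 in Med14 S983A, against -0.12 over the background set. After each chromosome was centred on its own median in each library, chromosome 10 held 37 of 513 members, a share of 0.649% against 0.593% overall. The intervals treat peaks as independent and cover counting only.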

How the data were processed

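Accessible chromatin was measured by ATAC-seq in 6 libraries of INS-1 cells, 1 for each of 2 genotypes and 3 treatments, and groups were taken from the sample titles. The authors used Trim Galore for trimming and bwa mem for alignment to rn6. With samtools they dropped duplicates, reads of low mapping quality and reads of the mitochondrion. Peaks of each library were called with macs2 and merged, and FPKM per merged peak were deposited. The sources used here do not give whether the FPKM rest on fragments shifted for the Tn5 cut. The scale of the FPKM lies close to the reads of each library in the merged peaks. The product of FPKM and length, added up over all merged peaks, came to 98.6% to 99.0% of what such a scale predicts.

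Values were taken as log2(FPKM + 0.5), which understates changes of low peaks, with the authors' normalization kept. Peaks called in all 6 libraries with a mean of at least 1 FPKM formed the background set. Reads were recovered from FPKM times length, which came out in whole steps for 100% of the low values checked (within 0.15 of a step). No p-value was computed, since each condition had 1 library, and intervals of 95% from recovered reads cover counting error only. Intervals of medians over peaks take peaks as units and cover no spread between libraries. The calculation was tested on simulated data. The members and lists were chosen with earlier results of these data known.

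The named peaks are the 8 members with the largest gap, the 4 with the highest FPKM in Med14 S983A FSK, the 3 with the lowest FSK change in WT, the 3 largest and 3 smallest by Ex-4 change in Med14 S983A, the 3 highest and 3 lowest by genotype difference in Ex-4, and the 2 nearest peaks on each side of each limit. The rule's further item, members of runs of 3 or more, had no case, and peaks outside the rule are marked as such in the text. Alternatives were other pseudocounts, filters, centring, quantile normalization, other limits, a call in the 4 CON and FSK libraries, and Ex-4 as reference. The rn6 sequence and annotation were not used here, so motifs and genes planned for the members were not analysed here. Calculations ran in Python 3.11.15 with pandas 2.3.3, numpy 2.4.6 and scipy 1.17.1, and plots in matplotlib 3.10.9.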

Additional observations from a re-analysis of the deposited data

Results flagged for a closer look

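FSK changed 21 members in opposite directions in the genotypes, below CON in WT and at least 2-fold above it in Med14 S983A. A lower value in WT FSK than in WT CON was rarer among the members (5.68%) than in the background set (64.8%). Only 1 of these, chr1:199054098-199054477, was at least 2-fold lower in WT, and 14 lay within 0.25 of no change on the log2 scale. The rule required the rise in the mutant, and with 1 library per condition the difference between the genotypes was not tested.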

How the results depend on the processing

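No paired analysis was possible because there was 1 library in every condition, and for the same reason no replicate could be left out. All 6 libraries bear on each value, and the spread between libraries is unknown. As reported, there were 370 members with a median Ex-4 change of 0.52 in Med14 S983A and 0.040 in WT, a median Med14 S983A minus WT difference in Ex-4 of -0.62, and 47 members that met the rule with Ex-4 as reference. That difference was below 0 under all 15 alternatives, which reuse the same Ex-4 libraries. Its order-statistic interval of 95%, taken over peaks, reached above 0 with a WT limit of 0.25 (-0.47 to 0.30). It did so too with a gap of at least 1 (-0.56 to 0.089). Peaks are not replicates, so this interval says nothing of the spread between libraries. Limits on the size of the change moved the difference in Ex-4 most. With a 1.5-fold limit in Med14 S983A there were 2506 members, with an Ex-4 change of 0.33 in Med14 S983A, a difference in Ex-4 of -0.22 and 85 that met the rule with Ex-4. With a 3-fold limit there were 28, with Ex-4 changes of 0.74 and 0.0041 in Med14 S983A and WT, a difference of -0.81 and 8 that met it. With a WT limit of 0.5 there were 124, and the Ex-4 change in WT turned to -0.044, with a difference of -0.32 and 19 that met it. With a WT limit of 0.25 there were 42, with Ex-4 changes of 0.66 and -0.14, a difference of -0.10 and 6 that met it. With a gap of at least 1 there were 72, with Ex-4 changes of 0.70 and -0.068, a difference of -0.12 and 18 that met it. With Ex-4 as the reference in the choice there were 179 peaks, the Ex-4 change turned to -0.11 in Med14 S983A and was 0.12 in WT, and the difference was -0.98. The count that met the rule with Ex-4 has no separate value there and was not run.

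Centring each library gave an Ex-4 change of 0.45 in Med14 S983A, a difference of -0.32 and 76 that met the rule with Ex-4. It shifted the FSK change by 0.11 in Med14 S983A and by 0.056 in WT and the genotype difference by 0.11 in Ex-4 and 0.12 in CON, and 289 of its 507 members were among the 370. Quantile normalization gave 0.42, turned the Ex-4 change in WT to -0.0071, and gave a difference of -0.38 and 74 that met the rule. Centring each chromosome gave 0.45, -0.38 and 80 in the same order. A pseudocount of 0.1 gave an Ex-4 change of 0.56 in Med14 S983A and 79 that met the rule, and a pseudocount of 1 gave 0.44 and 23. Without a pseudocount, an alternative chosen after seeing the data, there were 595 members, with an Ex-4 change of 0.59, a difference of -0.77 and 88 that met the rule. A mean of at least 3 FPKM gave a difference of -0.91. The number of members held within 1.5 times under 8 of the 15 alternatives. The causes of these shifts were not tested. Depth limits the weakest members most, since 136 of the 370 had under 100 reads in Med14 S983A CON.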

Other observations

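The members were also divided by their mean density over the 6 libraries. The 166 with a mean under 5 FPKM had a median genotype gap of 0.74 with CON and 0.097 with Ex-4 as reference, and the median difference in Ex-4, Med14 S983A minus WT, was -0.038. The 204 with a mean of at least 5 FPKM had a gap of 0.59 with CON and 0.22 with Ex-4, and their difference in Ex-4 was -1.03. Of the weaker members 23 met the rule with Ex-4 as reference, and of the stronger ones 24. In the median, the lower level of the mutant in Ex-4 was read in the stronger members. This division uses the same values as the choice of the members and is given as a description.

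The change with Ex-4 was also compared between the 2 genotypes peak by peak. Across the 370 members Pearson's r between the Ex-4 change in Med14 S983A and in WT was 0.059 (rho 0.079), against 0.47 (rho 0.45) across the 3140 peaks raised by FSK in both genotypes and 0.29 (rho 0.31) across the 1132 of the reverse class. The points of each set share the 4 libraries, and the rule itself bounds the FSK change in each genotype.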
